A study of Danio rerio with 3 samples.

Results

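Dividing cells of the zebrafish (Danio rerio) brain were identified by the messenger RNAs that a cell makes on its way through division. Brain tissue had been profiled on the 10x Genomics droplet platform, which marks the RNA of a droplet with a barcode and each captured molecule with a unique molecular identifier (UMI). The 3 libraries are Zn10 and Zn15, which the labels give as zinc treatments, and the control Ctrl, with 1 library each. What 10 and 15 stand for, how and for how long zinc was given, and the strain, age and number of fish were not given in the sources used here. A barcode was taken as dividing when it had at least 100 genes detected and UMIs in at least 2 different genes of mki67, top2a, cdk1, aurkb, nusap1, ccnb1, tpx2, cenpf and cdc25b. The rule took 407 of the 11207 barcodes with at least 100 genes, and 13683 barcodes were deposited in all. Zn10 gave 89 of 2459, Zn15 183 of 4119 and Ctrl 135 of 4629.

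The adult zebrafish brain keeps many zones of dividing cells. Radial glia along the ventricles act as neural stem cells, many of them resting, and give rise to committed progenitors that divide before they become neurons. Delta ligands on committed cells activate Notch receptors on their neighbours, which keeps those neighbours undifferentiated. Of the rule genes, mki67 encodes the Ki-67 protein that coats mitotic chromosomes, top2a the topoisomerase that untangles sister DNAs, and cdk1 and ccnb1 the kinase and cyclin that drive entry into mitosis. The others encode the mitotic kinase Aurora B (aurkb), the spindle proteins nusap1 and tpx2, the kinetochore protein cenpf and cdc25b, a phosphatase that activates cyclin-dependent kinases.

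Depth was low. Dividing barcodes held a median of 395 UMIs in Zn10, 401 in Zn15 and 315 in Ctrl, against 296, 292 and 270 in the other kept barcodes of the same 3 libraries. In total the dividing barcodes gave 39695 UMIs in Zn10, 82996 in Zn15 and 48309 in Ctrl. Deeper barcodes can pass a rule on detected genes more easily, so shares are also given at equal depth. Between 4 and 8 barcode sequences were shared by pairs of libraries, and 0 of them belonged to a dividing barcode. With 1 library per treatment no test is possible: ratios compare these libraries, not the conditions, and all intervals below are exact 95% intervals for counting error only.

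Barcodes just inside and just outside the threshold also differed in genes outside the rule, as given further on. Exactly 2 rule genes were found in 51 barcodes of Zn10, 97 of Zn15 and 79 of Ctrl, and exactly 1 in 136, 319 and 268. Their median depths were 387, 368 and 292 UMIs with 2 genes, against 339.5, 329 and 282.5 UMIs with 1 gene. Among the 407 dividing barcodes, 180 had 3 or more rule genes. Barcodes under 100 genes that held at least 2 rule genes numbered 2 in Zn10, 2 in Zn15 and 4 in Ctrl and were not counted.

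The gene cdc25b carried much of the membership. It was found in 293 of the 407 dividing barcodes (72.0%), mki67 in 199 (48.9%), cenpf in 172 (42.3%), top2a in 143 (35.1%), nusap1 in 120 (29.5%) and tpx2 in 80 (19.7%). The least abundant rule genes were ccnb1 in 35, cdk1 in 29 and aurkb in 27 dividing barcodes. Without cdc25b, 257 of the 407 would still pass, and the commonest pair was mki67 with cdc25b, in 126 barcodes. As a measure of free RNA, 1267 barcodes with at least 3 oligodendrocyte markers (median 284 UMIs) were read the same way: 2.92% had at least 1 rule gene and 0.316% at least 2.

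The summed levels of the rule genes in dividing barcodes are given as UMIs per 1000000 UMIs of the same barcodes (CPM). These values chose the barcodes and are a description. cdc25b stood at 3451 CPM in Zn10, 3277 in Zn15 and 3126 in Ctrl, against 151, 214 and 146 CPM in the other kept barcodes. mki67 stood at 1637, 1578 and 1470 CPM and cenpf at 1335, 1446 and 1346 CPM in Zn10, Zn15 and Ctrl dividing barcodes. These genes varied little between libraries. top2a was at 1184 CPM in Zn10, 819 in Zn15 and 1346 in Ctrl, and its Zn15 over Ctrl ratio of 0.609 (0.431 to 0.866) was the only one among the rule genes with 30 or more UMIs that lay past 1.5-fold.

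Genes outside the rule followed the number of rule genes detected. The mitosis and spindle list, 68 genes that exclude the rule genes, summed to 8793 CPM (7843 to 9827) in the 68 barcodes with 4 or more rule genes, 6244 CPM (5566 to 6982) in the 112 with 3 and 4820 CPM (4368 to 5306) in the 227 with 2. Barcodes with 1 rule gene other than cdc25b had 2922 CPM (2575 to 3303), those with cdc25b alone 1308 CPM (1147 to 1484), and those with no rule gene 214 CPM (199 to 230). The list was thus lower with cdc25b alone than with 1 of the other rule genes. DNA replication genes took another order: 2686 CPM (2173 to 3284) with 4 or more rule genes, 2899 CPM (2443 to 3415) with 3, 3522 CPM (3137 to 3941) with 2, and 349 CPM (330 to 369) with none. Notch pathway genes were already at 3459 CPM (3196 to 3739) with cdc25b alone, against 4264 CPM (3839 to 4723) with 2 rule genes and 1270.1 CPM (1233 to 1308) with none. Markers of mature neurons, which do not divide, stood at 565 CPM (345 to 873) with 4 or more rule genes, 799 CPM (622 to 1012) with 2, 2528 CPM (2303 to 2769) with cdc25b alone and 4919 CPM (4846 to 4993) with none.

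**Figure D1:**
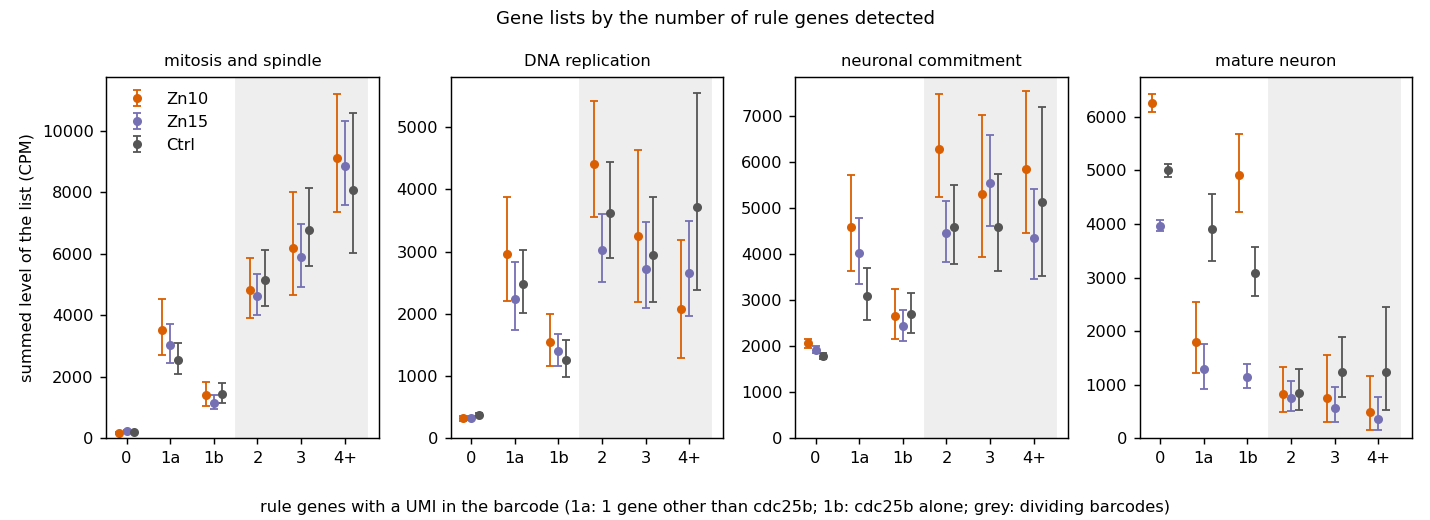
Summed level in CPM of 4 gene lists (vertical axes, from 0) in barcodes grouped by the number of rule genes with a UMI (horizontal axis), with 1 point per library and exact 95% Poisson intervals for counting error. The grey area marks dividing barcodes: the mitosis list climbs across it to 8793 CPM over the 3 libraries at 4 or more rule genes, while the neuronal commitment list stays near its level at 2 rule genes and the mature neuron list is at most 1242 CPM in any library.

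Compared with the other 257 members, the 150 that passed only because cdc25b was counted had more DNA replication and less mitosis RNA. Their replication list summed to 3896 CPM (3405 to 4438), against 2797 CPM (2497 to 3123) in the 257 members that pass without it, and their mitosis list to 4482 CPM (3954 to 5061), against 6859 CPM (6384 to 7359). pcna, the clamp that holds DNA polymerase on its template, was at 500 CPM (335 to 718) in these 150, against 257 CPM (172 to 369). Neuronal commitment genes did not separate the sets, at 4620 CPM (4083 to 5208) against 5186 CPM (4775 to 5624). All of the 150 held the fewest rule genes that the rule allows, while the 257 include every member with more. The replication and mitosis lists also differed with the number of rule genes, as given above. The comparison therefore mixes cdc25b with that number, and the part of cdc25b alone was not tested.

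Across all 407 members, cell cycle genes outside the rule were high in every library. Of the 7964 genes with 30 or more UMIs over dividing and other kept barcodes together, 30.1% were at least 1.5-fold higher and 35.3% at least 1.5-fold lower in dividing barcodes, and the median log2 ratio was -0.05. All 26 measured genes of the mitosis and spindle list were at least 1.5-fold higher, with a median log2 ratio of 4.60, and so were all 22 measured DNA replication genes, with a median of 2.60. Since the rule chose barcodes by their cycle genes, these counts describe the members and test nothing, and genes enter the count partly because they are high there. Of the mitosis genes, aspm, a spindle pole protein whose loss causes small brains in humans, was at 252, 337 and 207 CPM in dividing barcodes of Zn10, Zn15 and Ctrl, against 5.73, 6.48 and 3.35 CPM in other barcodes. The mitotic kinesin kif20a was at 302, 229 and 373 CPM, against 2.29, 2.88 and 10.7 CPM. The spindle checkpoint kinase gene bub1bb was at 227, 361 and 166 CPM, against 5.73, 16.6 and 8.72 CPM. Of the replication genes, the histone chaperone subunit chaf1a was at 277, 193 and 124 CPM, against 14.9, 20.9 and 8.72 CPM, and the helicase subunit mcm6 at 75.6, 169 and 228 CPM, against 18.3, 18.7 and 37.6 CPM. The mcm6 value of 75.6 CPM in Zn10 dividing barcodes corresponds to 3 counts, so its spread between libraries is uncertain.

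The leading genes outside the rule are the 25 with the highest ratio of dividing to other kept barcodes among genes with 100 or more UMIs in dividing barcodes. First came rrm2 (ENSDARG00000020711), the small subunit of ribonucleotide reductase that makes DNA precursors, at a ratio of 16.02 (12.4 to 20.7). stmn1a, a microtubule-destabilising stathmin, stood at 1889 CPM in Zn10, 1434 in Zn15 and 2256 in Ctrl dividing barcodes, against 102, 134 and 188 CPM in other barcodes, a ratio of 11.96 (10.4 to 13.8) over the 3 libraries. The nucleosome-binding protein gene hmgn2 stood at 4635, 4506 and 6127 CPM, against 513, 477 and 524 CPM, a ratio of 9.91 (9.13 to 10.8). hmgb2a, a DNA-bending protein, had a ratio of 9.47 (8.32 to 10.8).

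Among them were lbr, the lamin B receptor of the nuclear envelope, at 10.2 (8.91 to 11.7), and lmnb2, lamin B2, at 6.25 (5.76 to 6.77). lmnb2 was at 3477 CPM in Zn10, 4374 in Zn15 and 5568 in Ctrl dividing barcodes, against 549, 705 and 835 CPM. The most abundant of the 25 was hmgn1b, a further nucleosome-binding protein, at 19902, 27459 and 20907 CPM, with a ratio of 4.63 (4.48 to 4.79) and a UMI in 395 of the 407 dividing barcodes. Other chromatin genes among the 25 were the histone variant h2az2b (7.57), hmga1a (4.32), hmgn1a (3.75) and the arginine methyltransferase gene prmt5 (3.67). RNA-binding proteins were represented by raver1 (11.7), khsrp (4.298) and msi1 (3.79), and ribosomal proteins by rplp2l (4.49) and rps24 (3.49). Genes with names that begin with rpl or rps took 4.996% of UMIs in Zn10, 5.32% in Zn15 and 5.55% in Ctrl dividing barcodes, against 1.76%, 2.105% and 1.86% in other barcodes. They were picked by name, so some may not encode ribosomal proteins. The nuclear RNA malat1 took 16.9%, 20.3% and 18.1%, against 26.7%, 32.2% and 28.9%. Since CPM values share 1 total, a lower malat1 share raises every other gene in dividing barcodes.

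The 25 also included 3 genes of the neuronal commitment and Notch lists, while msi1, given above, counts among the radial glia markers read below. insm1a, a zinc finger factor of neuronal differentiation, stood at 2242 CPM in Zn10, 1482 in Zn15 and 1594 in Ctrl dividing barcodes, against 315, 262 and 221 CPM, a ratio of 6.55 (5.73 to 7.48). The Notch ligand gene dla stood at 1386, 952 and 1325 CPM, against 110, 180 and 168 CPM, a ratio of 7.29 (6.18 to 8.58). zic1, a factor of the dorsal neural tube and cerebellum, stood at 1537, 831 and 828 CPM, against 283, 271 and 202 CPM, a ratio of 4.04 (3.41 to 4.76). For all 3 genes every library had dividing barcodes above its own other barcodes. insm1a had a UMI in 39.8% of dividing barcodes, in 6.78% of other kept barcodes and in 1.105% of the oligodendrocyte-marked barcodes. For dla these shares were 32.2%, 4.08% and 0.552%. The rest were tnc, an extracellular matrix protein (5.18), the transcription factor gene nfia (3.601), galnt7 (5.42), sumo3b (3.90), crip2 (3.53) and si:ch211-288g17.3 (6.04).

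**Figure D2:**
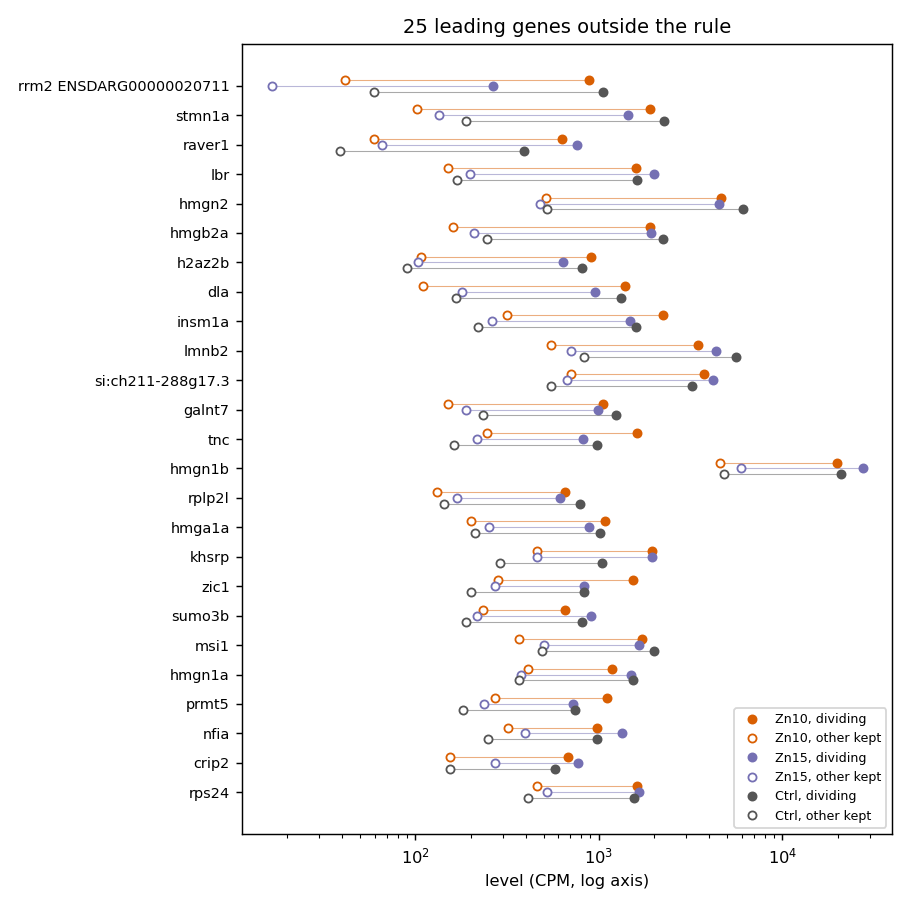
Level in CPM (log axis) of the 25 genes outside the rule that had the highest ratio between dividing barcodes (filled) and other kept barcodes (open), 1 row per gene with 1 line per library. In all 25 rows and in each library the filled point lies to the right of the open one, from a ratio of 16.02 for rrm2 at the top to 3.49 for rps24 at the bottom.

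To describe which lineages the dividing barcodes belonged to, lists of marker genes were read in them and in barcodes without any rule gene that carried at least 2 radial glia markers (2190 barcodes) or at least 2 neuronal commitment genes (1153 barcodes). Neuronal commitment genes, the transcription factors that start neuronal differentiation, were plentiful. They summed to 5945 CPM in Zn10, 4735 in Zn15 and 4658 in Ctrl dividing barcodes, against 2141, 2005 and 1858 CPM in all other kept barcodes. At least 2 of them were found in 182 dividing barcodes (44.7%, 39.8 to 49.7), against 12.1% (11.5 to 12.7) of other kept barcodes and 19 of the 1267 oligodendrocyte-marked ones. At 200 UMIs per barcode the shares were 25.5% (21.1 to 30.2) and 7.09% (6.56 to 7.66). Besides insm1a and zic1, the list held pax6a at 504 CPM in Zn10, 470 in Zn15 and 600 in Ctrl, neurod1 at 378, 542 and 290 CPM and zic2a at 403, 542 and 435 CPM. Over the 3 libraries, insm1a was at 1690 CPM in dividing barcodes and 1117 CPM in those with 2 commitment genes and no rule gene. For zic1 the values were 994 and 1183 CPM. Both genes belong to the list that defines the second set. Of the 19 measured genes of the commitment list, 11 were at least 1.5-fold higher and 8 lower, beside 30.1% and 35.3% of all genes. ebf3a (ENSDARG00000100244), a factor of later neuronal differentiation, was at 0, 24.1 and 62.1 CPM, against 416, 353 and 470 CPM.

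Notch pathway genes were also high. The list summed to 4535 CPM in Zn10, 3603 in Zn15 and 4989 in Ctrl dividing barcodes. In other kept barcodes it summed to 1400, 1469 and 1396 CPM. Of its 26 measured genes 18 were at least 1.5-fold higher and 4 lower, beside 30.1% and 35.3% of all genes. In barcodes with 2 radial glia markers and no rule gene the list summed to 1969, 1938 and 1925 CPM, and in those with 2 commitment genes to 1326, 1402 and 1548 CPM. The receptor gene notch1a stood at 1612, 1109 and 1387 CPM in dividing barcodes, a ratio of 3.33 (2.88 to 3.83) to other kept barcodes. The ligand genes dlb and dld had ratios of 5.34 (3.37 to 8.19) and 6.91 (3.76 to 12.1), from 27 and 17 UMIs. Among the effectors, her4.1, a target of Notch in radial glia, had 0 UMIs in Zn10 dividing barcodes, where 3 counts would be 75.6 CPM. It was at 133 CPM in Zn15 and 228 CPM in Ctrl. The list also holds her4.2, her4.3 and her4.4, which are not reported here, and the split of reads between these genes was not tested.

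Radial glia markers were mixed, with 7 of 22 measured genes at least 1.5-fold higher and 9 lower, close to the 30.1% and 35.3% of all genes. The stem cell factor gene sox2 was at 353 CPM in Zn10, 325 in Zn15 and 269 in Ctrl dividing barcodes, against 126, 132 and 113 CPM, and msi1, s100b and fabp7a had ratios of 3.79, 2.64 and 1.96. The gap junction gene cx43 was at 101, 120 and 207 CPM, against 767, 931 and 640 CPM, and glula, the glutamine synthetase of glia, at 1184, 1916 and 1387 CPM, against 2701, 3973 and 3241 CPM. epd, an ependymin that is not in the list, was at 50.4, 181 and 41.4 CPM, against 2726, 2521 and 2529 CPM. It had 2, 15 and 2 UMIs in dividing barcodes, with 31.6% of them in 1 barcode. At least 2 radial glia markers were found in 161 dividing barcodes (39.6%, 34.8 to 44.5), but also in 35.0% (32.3 to 37.7) of the oligodendrocyte-marked barcodes, in which glula alone had a UMI in 84.8%. The radial glia share is therefore not read as a count of radial glia. The label of progenitor cells rests on the commitment and Notch genes here, and these cover part of the members. At least 2 commitment genes were found in 182 of the 407, and 131 had neither commitment nor radial glia marks. The members are called dividing barcodes below.

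**Figure D3:**
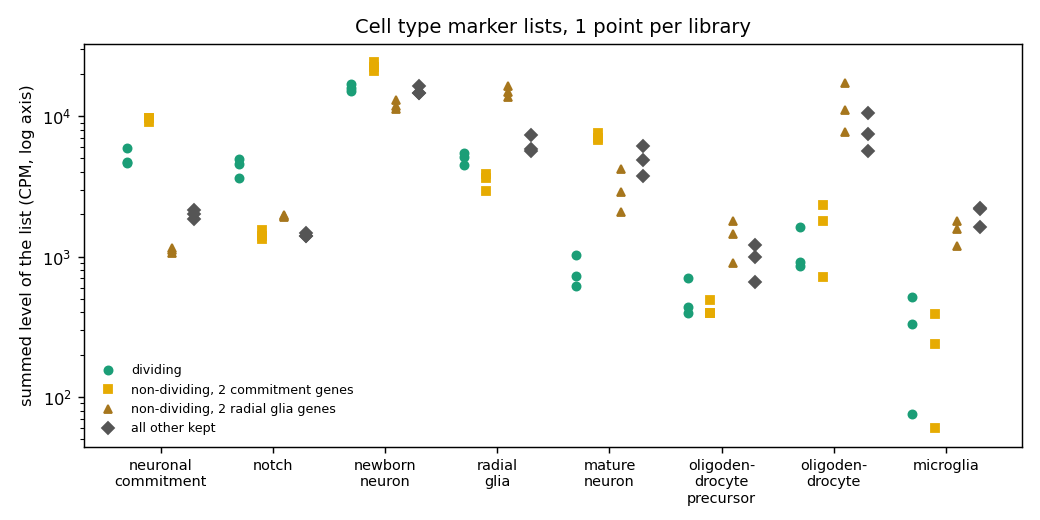
Summed level in CPM (log axis) of 8 marker lists in dividing barcodes, in barcodes with no rule gene that carry 2 neuronal commitment genes or 2 radial glia markers, and in all other kept barcodes, with 1 point per library. Dividing barcodes have the most Notch pathway RNA (3603 to 4989 CPM) and the least mature neuron RNA (615 to 1035 CPM) of the 4 sets. Barcodes with cdc25b alone, which are part of all other kept barcodes, had Notch RNA of 3646 CPM in Zn15. The commitment and radial glia lists are high in the sets they define by construction.

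Newborn neuron RNA was near the level of the other barcodes, and mature neuron, oligodendrocyte and microglia RNA was low. Newborn neuron genes summed to 16879 CPM in Zn10, 15049 in Zn15 and 15918 in Ctrl dividing barcodes, against 16348, 14534 and 14667 CPM in other kept barcodes, with 3 of 15 genes at least 1.5-fold higher and 5 lower, beside 30.1% and 35.3% of all genes. At least 2 newborn neuron genes were found in 90.7% of dividing and 76.3% of other kept barcodes, and in 74.3% and 61.5% at 200 UMIs. The oligodendrocyte-marked barcodes had 66.0% without thinning. Within that list sox11a and sox11b, transcription factors of early neurons, had ratios of 2.52 (2.23 to 2.86) and 3.23 (2.77 to 3.76), whereas elavl4 had 0.610 (0.517 to 0.716) and rtn1a 0.512 (0.424 to 0.614). Mature neuron genes were lower in 12 of 13 measured genes, and the synaptic vesicle gene sv2a gave 0 UMIs in Zn10, 1 in Zn15 and 0 in Ctrl dividing barcodes. Oligodendrocyte genes summed to 857, 916 and 1635 CPM, against 5679, 7438 and 10470.0 CPM, microglia genes to 75.6, 518 and 331 CPM, against 1627, 2169 and 2213 CPM. The vascular list gave 3 UMIs in all dividing barcodes, with 12 of its 14 genes at 0, and the lymphoid list 11 UMIs with 8 of 15 at 0. At least 2 oligodendrocyte markers were found in 12 dividing barcodes and at least 2 microglia or lymphoid markers in 6. At least 2 oligodendrocyte precursor markers were found in 13 (3.19%, 1.71 to 5.40), as often as in other kept barcodes (3.09%, 2.77 to 3.44).

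Some dividing barcodes carried both commitment and radial glia marks. Of the 407 dividing barcodes 115 had at least 2 commitment genes only, 94 at least 2 radial glia markers only, 67 had both and 131 neither, with median depths of 384, 420, 466 and 316 UMIs. Radial glia marks were found in 36.8% of the barcodes with commitment marks, beside 39.6% of all dividing barcodes. The barcodes with both marks had the highest mitosis list, at 7971 CPM (7056 to 8971), against 5754 CPM (5087 to 6484) with commitment only, 5640 CPM (4972 to 6374) with radial glia only and 5296 CPM (4639 to 6020) with neither. Their dla level of 1710 CPM (1302 to 2206) was also the highest, against 1198 CPM (905 to 1555), 856 CPM (609 to 1170) and 996 CPM (724 to 1337) in the same order. Barcodes with radial glia marks only had the lowest hmgn2, at 3863 CPM (3313 to 4477), against 5518 CPM (4865 to 6234) with commitment only. The barcodes with both marks also held the most rule genes, a mean of 3 per barcode, against 2.73 with commitment only, 2.73 with radial glia only and 2.49 with neither. The part of depth and of rule gene number in these differences was not tested.

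Within the division cycle, mitosis RNA outweighed replication RNA. The dividing barcodes held 141 replication UMIs for 247 mitosis UMIs in Zn10, a ratio of 0.571 (0.461 to 0.705). Zn15 held 237 for 493, a ratio of 0.481 (0.410 to 0.562), and Ctrl 164 for 295, a ratio of 0.556 (0.456 to 0.675). These intervals overlap, and the difference in the balance between libraries was not tested. In the other kept barcodes the ratios were 1.44, 1.22 and 1.46. Most rule genes act in mitosis, and the barcodes were chosen on them. A replication UMI was found in 258 dividing barcodes (63.4%), a mitosis UMI in 327 (80.3%), both in 209 and neither in 31.

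G1/S regulators were the least uniform of the cycle lists. Of 24 measured genes 14 were at least 1.5-fold higher and 2 lower, beside 30.1% and 35.3% of all genes. ccnd1, a cyclin of G1, was at 151 CPM in Zn10, 120 in Zn15 and 228 in Ctrl dividing barcodes, against 16.04, 32.4 and 34.9 CPM, and ccne1, the cyclin of S phase entry, at 227, 181 and 248 CPM, against 48.1, 46.1 and 41.6 CPM. The cyclin-dependent kinase inhibitor gene cdkn1bb was close to the other barcodes, at a ratio of 1.08 (0.884 to 1.31).

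Of 15 measured genes of stress and zinc handling, 10 were at least 1.5-fold lower in dividing than in other kept barcodes and 1 was higher, beside 35.3% and 30.1% of all genes. The list summed to 12646 CPM in Zn10, 11627 in Zn15 and 11116 in Ctrl dividing barcodes, against 19706, 19237 and 26690.1 CPM in other kept barcodes. In non-dividing barcodes with 2 commitment genes it summed to 14820 CPM in Zn10, 10784 in Zn15 and 16893 in Ctrl, so that Zn15 dividing barcodes were not below these. The list thus stood higher in Ctrl than in Zn10 or Zn15 among other barcodes, with ratios of 0.738 (0.725 to 0.752) for Zn10 over Ctrl and 0.721 (0.710 to 0.732) for Zn15 over Ctrl. In dividing barcodes the same ratios were 1.14 (1.005 to 1.29) and 1.05 (0.940 to 1.16), and this difference between the sets was not tested. The heat shock gene hsp70l was at 932, 892 and 1635 CPM in dividing barcodes, against 4462, 3507 and 6866 CPM, and it was lower in Zn10 and Zn15 than in Ctrl in both sets. hsp70.3, by contrast, was at 2922, 2325 and 1801 CPM in dividing barcodes, against 3584, 3460.1 and 4497 CPM. Near-identical hsp70 copies share sequence, so the split between them is uncertain. mt2, a metallothionein that binds zinc, was at 151 CPM in Zn10, 181 in Zn15 and 145 in Ctrl dividing barcodes, from 6, 15 and 7 UMIs, against 515, 436 and 958 CPM in other barcodes. At these counts no difference in mt2 between libraries was detectable among dividing barcodes.

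Dividing barcodes were most frequent in Zn15. They made up 3.62% of kept barcodes in Zn10 (2.92 to 4.44), 4.44% in Zn15 (3.83 to 5.12) and 2.92% in Ctrl (2.45 to 3.44). The ratio was 1.52 (1.21 to 1.92) for Zn15 over Ctrl, 1.24 (0.939 to 1.63) for Zn10 over Ctrl and 1.23 (0.948 to 1.60) for Zn15 over Zn10. Depth was also higher in Zn10 and Zn15 than in Ctrl, with medians over all kept barcodes of 301 UMIs in Zn10, 296 in Zn15 and 271 in Ctrl. When every barcode was thinned to 200 UMIs, the mean over 200 draws was 1.98% in Zn10, 2.73% in Zn15 and 1.92% in Ctrl. The ratios were then 1.42 (1.03 to 1.98) for Zn15 over Ctrl and 1.03 (0.670 to 1.53) for Zn10 over Ctrl. This left out 469 barcodes of Zn10, 761 of Zn15 and 1090 of Ctrl that were shallower. At 300 UMIs the shares were 3.90%, 5.07% and 2.98%, with ratios over Ctrl of 1.70 (1.22 to 2.37) and 1.31 (0.870 to 1.94). Zn15 over Zn10 was 1.38 (0.951 to 2.09) at 200 UMIs and 1.30 (0.914 to 1.87) at 300 UMIs. A share also depends on how many barcodes of other types a library holds, and the spread between fish is unknown. The Zn10 and Zn15 ratios share Ctrl and are not independent.

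**Figure D4:**
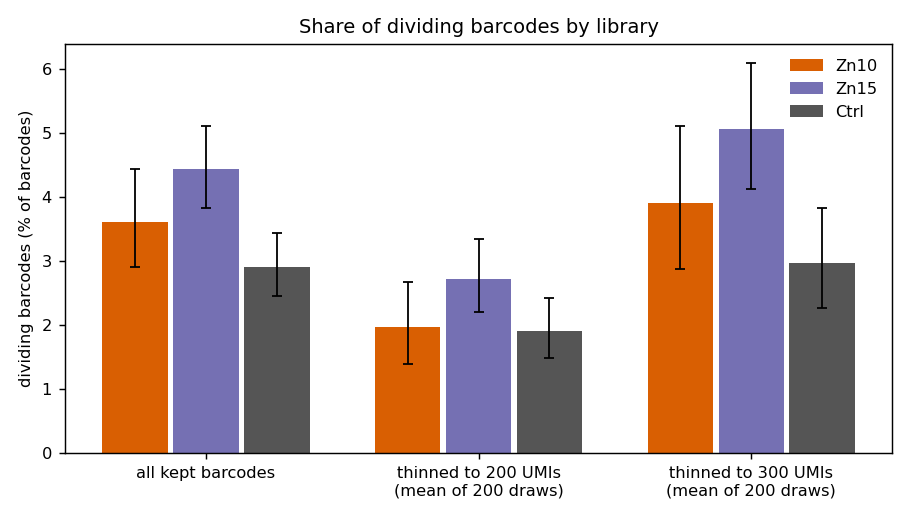
Percent of barcodes that met the dividing rule in Zn10, Zn15 and Ctrl (bars from 0, exact 95% intervals for counting error), in all kept barcodes and after thinning each barcode to 200 or 300 UMIs. Zn15 is highest in each setting (4.44%, 2.73% and 5.07%). The Zn10 interval overlaps those of Ctrl and Zn15 in each setting, and the Zn15 and Ctrl intervals overlap at 200 UMIs.

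Shares with neuronal commitment genes lay closer together at equal depth. At least 2 commitment genes were found in 49.4% of dividing barcodes in Zn10, 49.2% in Zn15 and 35.6% in Ctrl. At 200 UMIs per barcode the shares were 26.6% (17.3 to 37.7), 26.3% (19.9 to 33.5) and 23.5% (16.2 to 32.2). For 2 radial glia markers they were 40.4%, 46.4% and 29.6% before thinning and 15.19%, 24% and 15.97% at 200 UMIs.

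The comparison of libraries within dividing barcodes rests on few UMIs. For Zn10 over Ctrl 472 genes had 30 or more UMIs over the pair, and 28.2% of them were past 1.5-fold (65 higher, 68 lower). For Zn15 over Ctrl it was 25.9% of 665 genes (80 higher, 92 lower), and for Zn15 over Zn10 24.9% of 623 genes (67 higher, 88 lower). The medians of the log2 ratio were 0.02, -0.02 and -0.06. With counts this low many genes pass 1.5-fold by counting error. Single genes are named only where their own interval excludes 1. Their UMIs must also come from at least 10 barcodes, with no barcode holding over 25% of them. Of the genes past 1.5-fold, 61, 82 and 58 had an interval that excludes 1, in the same order of comparisons. The intervals are not adjusted for the number of genes, so some named genes can still pass by counting error. As the extremes of many genes, the named ratios tend to be overstated. The first and second comparisons share the Ctrl barcodes.

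In Zn10 over Ctrl, trib3 had the highest ratio and a mitochondrial feature the lowest. trib3, a pseudokinase induced by the integrated stress response, had 43 UMIs in Zn10 (1083 CPM) and 7 in Ctrl (145 CPM), a ratio of 7.48 (3.33 to 19.7), beside 1.65 (1.43 to 1.91) in the other kept barcodes. dnajb1b, a heat shock co-chaperone, had 35 UMIs in Zn10 and 11 in Ctrl, a ratio of 3.87 (1.92 to 8.45). hmgcra, the rate-limiting enzyme of cholesterol synthesis, had 62 UMIs in Zn10 and 27 in Ctrl, a ratio of 2.79 (1.75 to 4.57), beside 1.23 (1.06 to 1.43) elsewhere. The immediate-early gene egr1 had 32 UMIs in Zn10 and 15 in Ctrl, a ratio of 2.60 (1.37 to 5.16). The rest of the 12 highest were niban2b (3.96), the chromatin remodeller ino80 (3.16), adgre10 (2.82), srrm1 (2.77), gnb1a (2.76), MAF1 (2.76), calm2a (2.68) and ube2al (2.67). All 12 were also above 1 in the other kept barcodes, where they lay between 1.08 and 3.08.

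The lowest gene was the mitochondrial genome feature ENSDARG00000080337, with 8 UMIs in Zn10 and 57 in Ctrl, a ratio of 0.171 (0.0704 to 0.360). mt-co2 and mt-co1, subunits of cytochrome c oxidase, had ratios of 0.316 (0.116 to 0.743) and 0.406 (0.168 to 0.889). Their ratios in the other kept barcodes were 0.403 and 0.407, so these genes were lower in Zn10 in both sets of barcodes. Mitochondrial RNA was scarce, at 0.101% of UMIs in Zn10, 0.290% in Zn15 and 0.358% in Ctrl dividing barcodes. Other kept barcodes had 0.148%, 0.355% and 0.348%. How much of it came from the dividing cells themselves was not tested. nucks1a, a chromatin protein, had 53 UMIs in Zn10 and 199 in Ctrl, a ratio of 0.324 (0.235 to 0.441), beside 0.422 elsewhere. The splicing factor gene tra2a had a ratio of 0.304 (0.112 to 0.713) and the chromatin insulator gene ctcf 0.406 (0.158 to 0.933). epha7, an ephrin receptor, had 16 UMIs in Zn10 and 53 in Ctrl, a ratio of 0.367 (0.196 to 0.653), and slc25a5, the mitochondrial ADP/ATP carrier, 0.420 (0.236 to 0.720). The other low genes were si:ch1073-147e4.1 (0.316), si:dkey-153m14.1 (0.379), zgc:114130 (0.418) and ube2g1a (0.431).

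In Zn15 over Ctrl, rab1ba and acbd3 stood among the 12 highest, each with 3 UMIs in Ctrl. rab1ba, a GTPase of transport between the endoplasmic reticulum and the Golgi, had 34 UMIs in Zn15 and 3 in Ctrl, a ratio of 6.60 (2.07 to 33.6), beside 3.64 elsewhere. The Golgi protein gene acbd3 had 28 UMIs in Zn15 and 3 in Ctrl, a ratio of 5.43 (1.68 to 27.9), beside 2.56 elsewhere. pdia6, a disulfide isomerase of the endoplasmic reticulum, had a ratio of 3.49 (1.34 to 11.5), beside 2.44 elsewhere. ino80 had 91 UMIs in Zn15 and 10 in Ctrl, a ratio of 5.30 (2.75 to 11.4), beside 2.14 elsewhere. trib3 had 39 UMIs in Zn15 and 7 in Ctrl, a ratio of 3.24 (1.43 to 8.59). npm1b, a nucleophosmin of the nucleolus, had 72 UMIs in Zn15 and 16 in Ctrl, a ratio of 2.62 (1.51 to 4.83), and ipo7, a nuclear import receptor, 3.61 (1.39 to 11.9). ctdspl2b (3.26), niban2b (3.06), ptp4a1 (2.81) and hnrnpa0a (2.81) were the others besides rrm2.

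The gene rrm2 is present under 2 identifiers, and they went opposite ways. ENSDARG00000078069 had 2 UMIs in Zn10 dividing barcodes, 39 in Zn15 and 0 in Ctrl, so that Zn15 was 7.57-fold higher with Ctrl set at 3 counts, and the exact interval of the ratio has a lower limit of 5.87. ENSDARG00000020711 had 35 UMIs in Zn10, 22 in Zn15 and 51 in Ctrl, and its Zn15 over Ctrl ratio was 0.251 (0.145 to 0.422). The other kept barcodes had the same order, with 6, 35 and 0 UMIs of the first and 36, 23 and 89 of the second. Both together gave 932 CPM in Zn10, 735 in Zn15 and 1056 in Ctrl, a ratio of 0.696 (0.472 to 1.03) for Zn15 over Ctrl and 0.883 (0.562 to 1.37) for Zn10 over Ctrl. Reads from like copies can be split differently, so each copy alone is uncertain.

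The lowest genes in Zn15 over Ctrl included sumo2b, a SUMO modifier, with 11 UMIs in Zn15 and 27 in Ctrl, a ratio of 0.237 (0.106 to 0.494). nucks1a had 110 UMIs in Zn15 and 199 in Ctrl, a ratio of 0.322 (0.253 to 0.408), beside 0.337 elsewhere. mt-co1 had 14 UMIs in Zn15 and 27 in Ctrl, a ratio of 0.302 (0.146 to 0.596), beside 0.9996 (0.886 to 1.13) elsewhere. sox6, a transcription factor, had 13 UMIs in Zn15 and 19 in Ctrl, a ratio of 0.398 (0.181 to 0.850), beside 1.52 (1.23 to 1.88) elsewhere. The histone variant gene h2ax1 had a ratio of 0.420 (0.244 to 0.716) and the ribosomal protein gene rpl32 0.437 (0.208 to 0.897). elmod1 (0.344), fstl1b (0.368), akirin2 (0.388), si:ch1073-147e4.1 (0.410) and pgrmc2 (0.412) were the others.

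**Figure D5:**
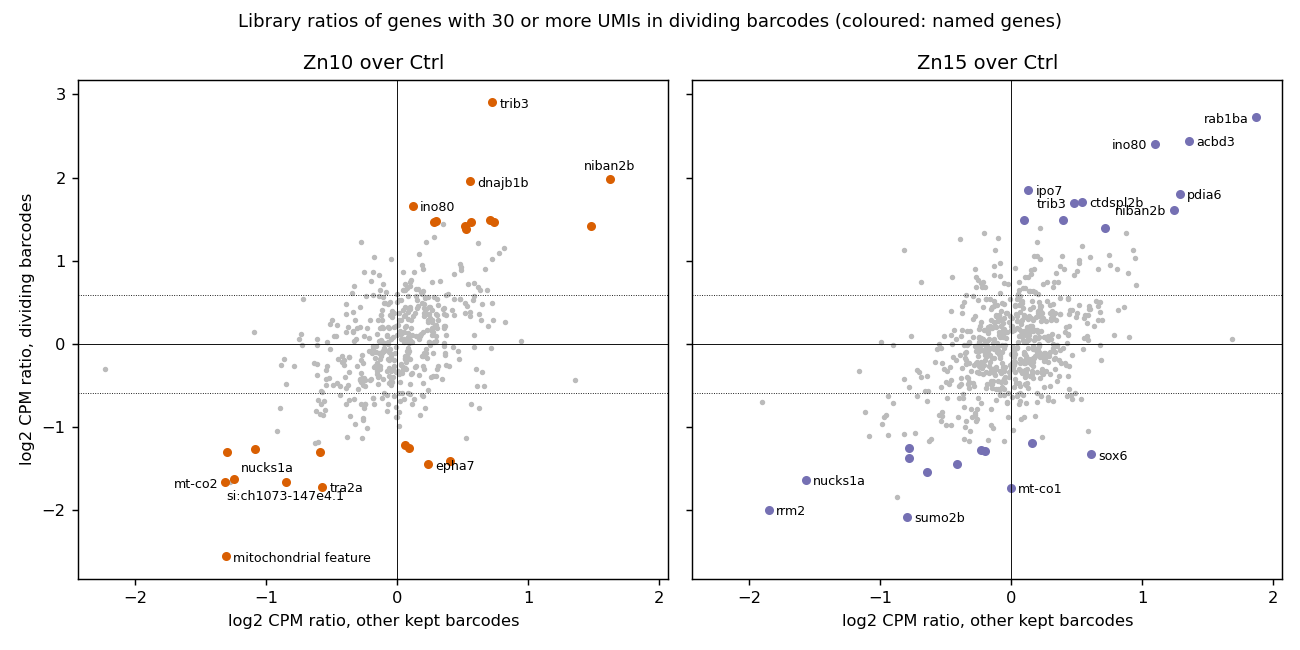
Log2 CPM ratio of Zn10 over Ctrl (left) and Zn15 over Ctrl (right) in dividing barcodes (vertical axis) against the same ratio in the other kept barcodes (horizontal axis), for genes with 30 or more UMIs over the pair in dividing barcodes and UMIs in both libraries. Coloured points are the named genes, and dotted lines mark 1.5-fold. Most named genes lie on the same side of 0 on both axes, with epha7 on the left and sox6 on the right among those that do not. The point labelled rrm2 is the copy ENSDARG00000020711.

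Zn15 over Zn10 uses the barcodes of both other comparisons without those of Ctrl. Besides rrm2, the highest genes were cnp, a 2',3'-cyclic nucleotide phosphodiesterase known from myelin, with 29 UMIs in Zn15 and 3 in Zn10, a ratio of 4.62 (1.43 to 23.7), and mt-co2, with 55 and 7 UMIs, a ratio of 3.76 (1.71 to 9.78). prps1a, which makes the ribose precursor of nucleotides, had a ratio of 3.54 (1.39 to 11.5), and the ribosomal protein gene rps20 2.27 (1.31 to 4.17). ptp4a1 (3.47), si:dkey-153m14.1 (2.84), tra2a (2.60), znf827 (2.46), raph1b (2.39), purab (2.21) and a clone-named gene at 2.47 completed the 12. For the genes listed last, from ptp4a1 to the clone-named gene, the lower limits of the intervals ran from 1.01 (purab) to 1.60 (si:dkey-153m14.1). In the other kept barcodes cnp (0.822), ptp4a1 (0.898), tra2a (0.913) and purab (0.747) were below 1. The rest of the 12 highest lay between 1.02 and 3.67 there. The 12 lowest genes, named next, were all below 1 there. The lowest were the synaptic adhesion gene nrxn1a (0.263, 0.114 to 0.576), the rrm2 copy ENSDARG00000020711 (0.301), egr1 (0.314, 0.172 to 0.561), the chaperone hspa4a (0.342), srrm1 (0.363), sat1a.2 (0.383), dnajb1b (0.410), calm1b (0.428), trib3 (0.434, 0.274 to 0.685), MAF1 (0.436), kidins220a (0.450) and fubp1 (0.456).

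For the mitosis and replication lists, both ratios over Ctrl had intervals that include 1. Mitosis genes summed to 6222 CPM in Zn10, 5940 in Zn15 and 6107 in Ctrl dividing barcodes, with ratios of 1.02 (0.857 to 1.21) for Zn10 over Ctrl and 0.973 (0.840 to 1.13) for Zn15 over Ctrl. Replication genes had ratios of 1.05 (0.829 to 1.32) and 0.841 (0.686 to 1.03) over Ctrl, and 0.804 (0.650 to 0.997) for Zn15 over Zn10. The G1/S regulators had 0.897 (0.747 to 1.08) and 0.794 (0.680 to 0.929) over Ctrl, beside 0.893 and 0.904 in other kept barcodes. In Zn15 over Ctrl 1 of their 5 measured genes was at least 1.5-fold higher and 3 lower, beside 25.9% of all genes. Mature neuron genes had 0.706 (0.431 to 1.14) and 0.594 (0.394 to 0.895) over Ctrl, beside 1.25 and 0.763. Chromatin genes of dividing cells had 0.827 (0.767 to 0.891) and 0.815 (0.766 to 0.867), beside 0.908 and 0.834 in other kept barcodes, with 0 of 22 measured genes at least 1.5-fold higher and 3 lower in Zn10 over Ctrl and 2 of 28 higher and 3 lower in Zn15 over Ctrl. These shares are at or below the 28.2% and 25.9% of all genes. Within the list nucks1a was at 1335 CPM in Zn10, 1325 in Zn15 and 4119 in Ctrl. The Notch list had 0.909 (0.745 to 1.11) in Zn10 over Ctrl and 0.722 (0.607 to 0.859) in Zn15 over Ctrl, beside 1.003 and 1.05 in other kept barcodes, with dla and notch1a the only genes measured in it. The neuronal commitment list had 1.28 (1.06 to 1.54) in Zn10 over Ctrl and 1.02 (0.861 to 1.203) in Zn15 over Ctrl, beside 1.15 and 1.08. Within it zic1 was the gene past 1.5-fold in Zn10 over Ctrl, at 1537 CPM against 828 CPM. Oligodendrocyte genes summed to 857 CPM in Zn10, 916 in Zn15 and 1635 in Ctrl dividing barcodes, with ratios of 0.524 (0.340 to 0.792) and 0.560 (0.403 to 0.777), beside 0.542 and 0.710 in other kept barcodes. Microglia genes, from 3 UMIs in Zn10, 43 in Zn15 and 16 in Ctrl, had ratios of 0.228 (0.0426 to 0.797) for Zn10 over Ctrl and 6.86 (2.19 to 34.5) for Zn15 over Zn10, beside 0.735 and 1.33 in other kept barcodes. These UMIs came largely from few barcodes, and list sums were not held to the limit of 25% in 1 barcode. For mpz, an oligodendrocyte gene, 1 barcode held 52.4% of its 21 UMIs. At least 2 oligodendrocyte markers were found in 1, 8 and 3 dividing barcodes of Zn10, Zn15 and Ctrl, and 2 microglia markers in 0, 3 and 2. The intervals do not cover the spread between barcodes, so no library difference is read from these 2 lists. The part of free RNA in these values was not tested.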

How the data were processed

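For each of 3 libraries the authors deposited raw UMI counts, whole numbers for every gene in every barcode. Per the file headers the matrices came from Cell Ranger 4.0.0. Genome build GRCz11 and the tools Seurat and fastp appear in the submitters' processing notes. Whether whole cells or nuclei were loaded, how cells were called, which annotation served and if intronic reads counted were not given in the sources used here. Depth was 974866 (Zn10), 1634806 (Zn15) and 1698707 (Ctrl) UMIs, over 2850, 5154 and 5679 barcodes. The gene table has 32057 identifiers, 28988 of them in the gene name table used here, from which clone names such as CR383676.2 (malat1) were replaced.

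Barcodes with at least 100 genes were kept, and the rule was applied to them. No cells were clustered. Doublets were not removed, and no caller was run; leaving out barcodes above the 99th percentile of UMIs was an alternative. Free RNA was not corrected, and barcodes with 3 or more oligodendrocyte markers give its level. Counts were summed over dividing or other kept barcodes of a library and divided by their total (CPM). Intervals are exact at 95%: Clopper-Pearson for shares, Poisson for CPM and the conditional binomial for ratios. Thinned shares are the mean of 200 seeded draws, with the interval of the rounded mean count; shares of lineage markers at 200 UMIs come from 1 draw. Gene ratios needed 30 UMIs over both sides, and a fold of 1.5 (or its inverse, 0.667) was the threshold. For the printed rrm2 ratio a library at 0 was set to 3 counts. For ranking library pairs and counting genes past 1.5-fold it was set to a value below 1 count. Named genes were the 9 rule genes, the 25 genes highest in dividing barcodes with 100 or more UMIs, the 12 highest and 12 lowest of each library pair under the conditions given with them, and the most abundant or most changed members of each list; some of them are not reported here. The members, the gene lists and this rule were chosen with earlier results of these data known. Calculations used Python 3.11.15, numpy 2.4.6, scipy 1.17.1, pandas 2.3.3 and matplotlib 3.10.9. The ratio step was tested on counts simulated without spread between barcodes or libraries, so that test does not cover such spread.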

Additional observations from a re-analysis of the deposited data

Results flagged for a closer look

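In Ctrl 4 barcodes with fewer than 100 genes held at least 2 rule genes, which is a dividing signal outside the barcodes analysed, beside 2 in Zn10 and 2 in Zn15.

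Some genes had a ratio in dividing barcodes whose sign was opposite to that in the other kept barcodes, with both intervals away from 1. The differences between the sets were not tested. For Zn10 over Ctrl, epha7 had a log2 ratio of -1.44 in dividing barcodes and 0.24 in the others, and si:dkey-153m14.1 had -1.40 and 0.40. For Zn15 over Ctrl, sox6 had -1.33 in dividing barcodes and 0.61 in the others. For Zn15 over Zn10, cnp had 2.21 and -0.28, and purab had 1.15 and -0.42. These rest on 3 to 53 UMIs per library in dividing barcodes.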

How the results depend on the processing

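No paired analysis was possible because each treatment had 1 library, and no library could be left out. The shares of dividing barcodes in Zn10, Zn15 and Ctrl moved with how the rule was set: 6.86%, 9.90% and 5.68% at a minimum of 200 genes per barcode, 1.55%, 2.09% and 1.21% with 3 or more rule genes, 9.15%, 12.2% and 8.71% with 1 or more, 1.71%, 2.21% and 1.49% with mki67, top2a, cdk1, nusap1 and cenpf only, 2.03%, 2.84% and 1.94% without cdc25b, and 1.98%, 2.73% and 1.92% thinned to 200 UMIs. Genes past 1.5-fold, with Zn10 over Ctrl given first, then Zn15 over Ctrl, then Zn15 over Zn10, numbered 15, 25 and 17 with at least 100 UMIs per gene, 2623, 2907 and 2514 with at least 3, and 49, 93 and 85 with 3 or more rule genes. Without cdc25b, an alternative chosen after seeing the data, they numbered 82 and 113 for Zn10 and Zn15 over Ctrl. These counts follow the number of genes and UMIs entered. Replication over mitosis UMIs in Zn10, Zn15 and Ctrl became 0.342, 0.373 and 0.443 with 3 or more rule genes and 0.376, 0.396 and 0.452 without cdc25b, and 0.407 in Zn15 thinned to 200 UMIs. With the rule itself applied after thinning, 2 commitment genes were found in 24.2%, 26.4% and 26.8% of dividing barcodes and 2 radial glia markers in 12.1%, 20.7% and 21.1%. In Ctrl 2 commitment genes were found in 44.6% with 3 or more rule genes. Scaling by the total without malat1 or by the median of ratios moved none of these. A change of the UMI minimum per gene cannot alter the ratio of a gene, and both scalings shift all ratios of a pair alike. Genes that fell below the minimum in a setting were not compared. A gene ratio counted as near the main value when it lay inside its own main interval, which was often wide. Of the other values compared, 83 summaries and 460 gene ratios stayed near the main value, 7 gene ratios moved and 0 reversed. Those that moved were nucks1a in Zn10 over Ctrl, with a log2 ratio of -2.56 with 3 or more rule genes, and si:dkey-153m14.1 in Zn10 over Ctrl and Zn15 over Zn10, with -2.66 and 2.87 at a minimum of 200 genes per barcode. Depth limits all gene ratios, since the dividing barcodes of Zn10 hold 39695 UMIs in all.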
